A study of Mus musculus with 4 samples.

Results

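The transcriptome of tumour-initiating stem-like cells from mouse liver was compared between a culture given SAHA together with ATRA and a culture given ATRA alone. Expression values of the culture given both compounds were divided by those of the culture given ATRA, as log2((FPKM + 1)/(FPKM + 1)). FPKM counts the sequenced fragments of a gene for each kilobase of its transcript and in proportion to all mapped fragments of the library. A gene was counted where its mean over all 4 libraries was at least 1 FPKM, which kept 8616 of the 23359 rows. There was 1 library for each treatment, so no difference can be set against the spread between cultures and none was tested. A gene is called higher or lower where the log2 ratio reached 1 in size, a 2-fold mark on this scale.

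The cells came from liver tumours of C57BL/6 mice and were grown in medium with serum, EGF and dexamethasone, which all cultures shared. The compared cultures had 5 ug/ml ATRA, or 5 ug/ml ATRA with 0.5 ug/ml SAHA, for 16 hours. The doses in the combination are those of the shared treatment protocol. A vehicle culture and a culture with 0.5 ug/ml SAHA alone give the levels without ATRA. Where 4 values of a gene follow one another, they stand in the order vehicle, ATRA, SAHA and combination. The sources used here do not say whether the cells were 1 line, 1 animal or a pool.

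ATRA, all-trans retinoic acid, is the ligand of the retinoic acid receptors RARA, RARB and RARG, which bind DNA as heterodimers with retinoid X receptors. Without ligand these dimers hold corepressor complexes that contain histone deacetylases, and with ligand they exchange them for coactivators with acetyltransferase activity. SAHA, also called vorinostat, inhibits the zinc-dependent histone deacetylases (HDACs), which remove acetyl groups from histones and from other proteins.

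With SAHA added to ATRA, 901 counted rows were higher than with ATRA alone (10.5% of those counted) and 1029 were lower (11.9%). The median log2 ratio over all counted rows was 0.04. Small RNAs made up 149 of the counted rows, of which 38 were higher and 28 lower. Without them, 5% of the genes had a ratio below -1.54 and 5% one above 1.29. On the higher side 163 genes lay less than 0.1 above the mark and 196 less than 0.1 below it. At a wider mark, 73 genes were higher by at least 2 log2 units and 186 were lower by as much, so the largest differences lay more often on the lower side.

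The libraries had similar estimated depth, from 98 to 106.5 fragments per FPKM and kilobase of transcript. The SAHA library stood apart: the predicted gene Gm20594 held 33.9% of its summed FPKM, against 18.0% with vehicle, 16.6% with ATRA and 10.3% with the combination. This library enters the main ratio only through the filter on the mean. With the filter set on the ATRA and the combination library alone, 905 rows were higher and 1038 lower. Markers of hepatocytes were at or near 0 in every library, and none of the 45 in the table was counted. Their FPKM summed to 2.12 with ATRA and 2.41 with the combination, and albumin (Alb) did not exceed 0.02 FPKM in any library. No marker of lymphocytes or erythroid cells was counted, and of 19 macrophage markers only Cd68 was. Of 19 endothelial markers 2 were counted, and of 11 markers of stellate cells 4. All 11 stellate markers together summed to 40.2 FPKM with ATRA and 31.4 with the combination. The part of these cells in the results was not tested. Some other lists had higher sums. Mesenchymal markers, 15 of 36 counted, summed to 1109 FPKM with ATRA and 432 with the combination. Cholangiocyte and progenitor markers, 9 of 18 counted, summed to 620 and 455 FPKM. Epithelial markers, 7 of 37 counted, summed to 173 and 103 FPKM. Of 35 stem cell and tumour-initiating markers 17 were counted. Prom1, Epcam, Lgr5 and Nanog, which are often used to mark such cells, did not exceed 0.1 FPKM.

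**Figure D1:**
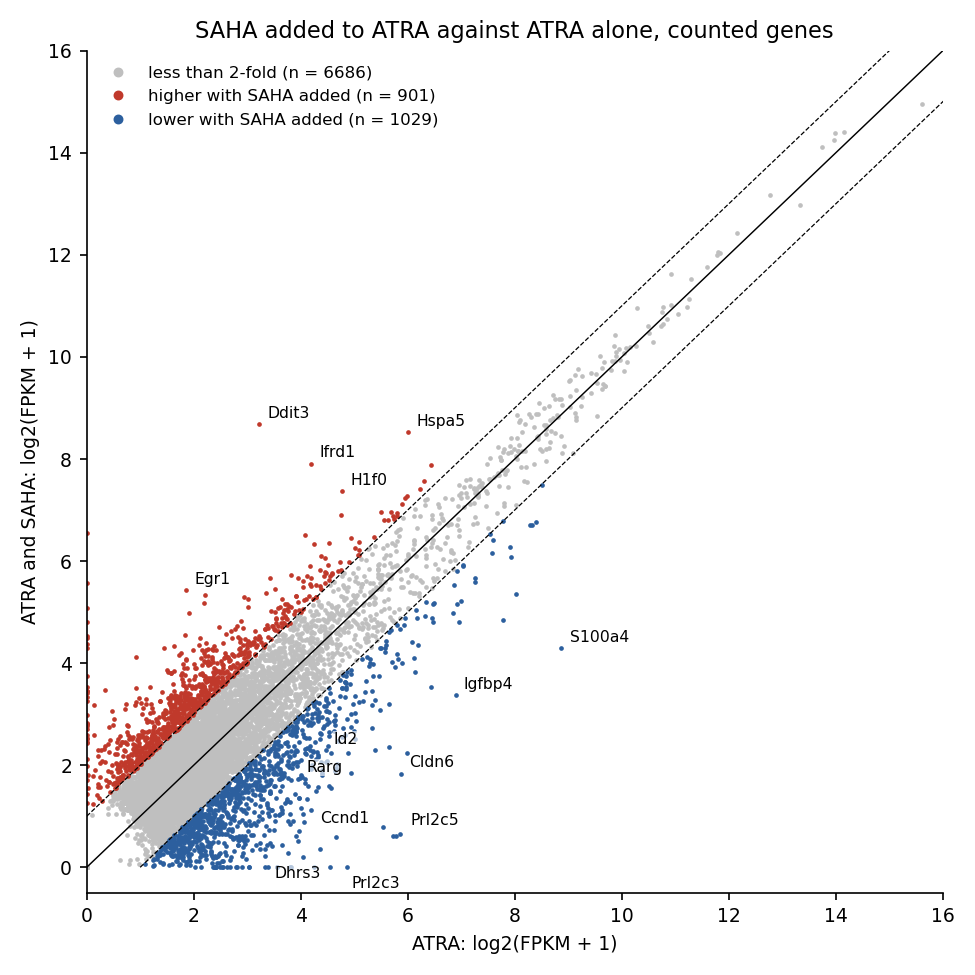
Each point is 1 of the 8616 counted rows, with log2(FPKM + 1) in the ATRA library on the x axis and in the library with ATRA and SAHA on the y axis. The solid line marks equal values and the dashed lines the 2-fold mark. Ddit3 and Ifrd1 lie farthest above the line among the labelled genes, and the proliferins, Ccnd1, S100a4 and Dhrs3 far below it.

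Genes that retinoic acid receptors are known to activate lay mostly below their ATRA level when SAHA was added. Of 35 listed targets 11 were counted, of which 5 were lower, 1 was higher and 9 had a ratio below 0. Their median log2 ratio was -0.63, beside 0.04 over all counted rows. Without ATRA 3 of the 11 were lower and 1 was higher, with a median of -0.36, beside -0.12 over all counted rows. With totals made equal after leaving out the 10 highest rows, the list median without ATRA was -0.06. In such bulk libraries fewer cells that express a gene and less RNA in each cell cannot be told apart. Dhrs3 encodes a reductase that turns retinal back into retinol and thereby limits retinoic acid synthesis. It stood at 0.0780 FPKM under vehicle, 15.5 under ATRA, 0.119 under SAHA and 0.153 under the combination, a log2 ratio of -3.84 for SAHA added to ATRA. The ATRA library alone was high, and the combination library lay within 0.1 FPKM of the vehicle library. Dhrs3 passed the filter only through the ATRA library, so it could be counted only as a gene high there.

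Tgm2, a transglutaminase and a classical retinoid-responsive gene, gave 3.98 FPKM under vehicle, 14.7 under ATRA, 3.0 under SAHA and 4.45 under the combination, a log2 ratio of -1.53. Nrip1, a ligand-dependent corepressor of nuclear receptors, gave 2.97, 5.46, 1.51 and 0.921 FPKM in the same order, a log2 ratio of -1.75. In both genes, too, the ATRA library was the highest of all. Tgif1, a homeodomain repressor, gave 16.0, 12.1, 1.17 and 1.40 FPKM and was lower with SAHA whether or not ATRA was present. Egr1 was the 1 listed target that was higher, and it is described with the immediate early genes.

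Several listed targets were too low to be counted and are given as values only. Stra6, the membrane receptor that takes up retinol, was at 0.0160 FPKM under vehicle, 1.17 under ATRA, 0.0359 under SAHA and 0.0611 under the combination. Cyp26b1, a retinoic acid hydroxylase, was at 0.0265, 0.377, 0.0657 and 0.0839 FPKM. In both genes the ATRA library was again the highest and the combination was below 0.1 FPKM. Cyp26a1, the hydroxylase most often used to read retinoid signalling, stayed below 0.05 FPKM in all 4 libraries.

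The receptors themselves differed among one another. Rarg gave 8.76 FPKM under vehicle, 14.2 under ATRA, 2.0 under SAHA and 2.97 under the combination, a log2 ratio of -1.93. Rara gave 3.93 FPKM with ATRA and 2.19 with both, a log2 ratio of -0.63, and the partner receptors Rxra and Rxrb had ratios of -0.58 and -0.12. Rarb, at 1.11 FPKM with ATRA and 0.367 with both, was below the filter. Only Rarg among the counted receptors passed the 2-fold mark, and both libraries with SAHA lay below both libraries without it. Of 16 counted receptors and coregulators 4 were lower and 2 were higher. Rarg and Nrip1 also stand in the list of receptor targets. Among the cofactors, the acetyltransferase Kat2b was lower (log2 ratio -1.53), and the corepressor scaffolds Sin3a (1.13) and Sin3b (1.48) were higher.

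Enzymes and carriers of retinoid metabolism followed the same side. Of 31 listed genes 9 were counted, of which 5 were lower and 1 was higher, with a median log2 ratio of -1.12. Dhrs3 is in this list and in that of the receptor targets, so the 2 lists are not separate observations. Without ATRA 4 of the 9 were lower, with a median of -0.89. Crabp1, a cytosolic retinoic acid-binding protein, gave 85.4 FPKM under vehicle, 70.5 under ATRA, 21.9 under SAHA and 31.9 under the combination. Rdh11, which reduces retinal, went from 15 FPKM with ATRA to 3.28 with both, and Adh7, an alcohol dehydrogenase that oxidises retinol, from 11.5 to 2.47. Fabp5, a carrier that passes retinoic acid to another nuclear receptor, had a log2 ratio of -1.30. Rdh13, a mitochondrial retinol dehydrogenase, was the exception on the higher side, at 0.776 FPKM with ATRA and 3.09 with both.

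Among the lowest ratios were those of the proliferins, prolactin-related secreted hormones of the placenta that also mark proliferating and immortal mouse cells. All 5 counted members, on chromosome 13, were lower, with a median log2 ratio of -5.11. Prl2c2 gave 6.46 FPKM under vehicle, 54.3 under ATRA, 0.103 under SAHA and 0.520 under the combination. Prl2c5 gave 6.77, 57.3, 0.122 and 0.580 FPKM, and Prl2c1 gave 6.05, 52.1, 0.112 and 0.534 FPKM. In these 3 genes the combination was lower than ATRA by a factor of 97.5 to 104.4 on the FPKM scale, and it lay above SAHA alone. The members are near-identical copies, and Prl2c3 and Prl2c4 share 1 locus in the table, so the authors' counting could divide reads among them. Their values are not separate observations.

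**Figure D2:**
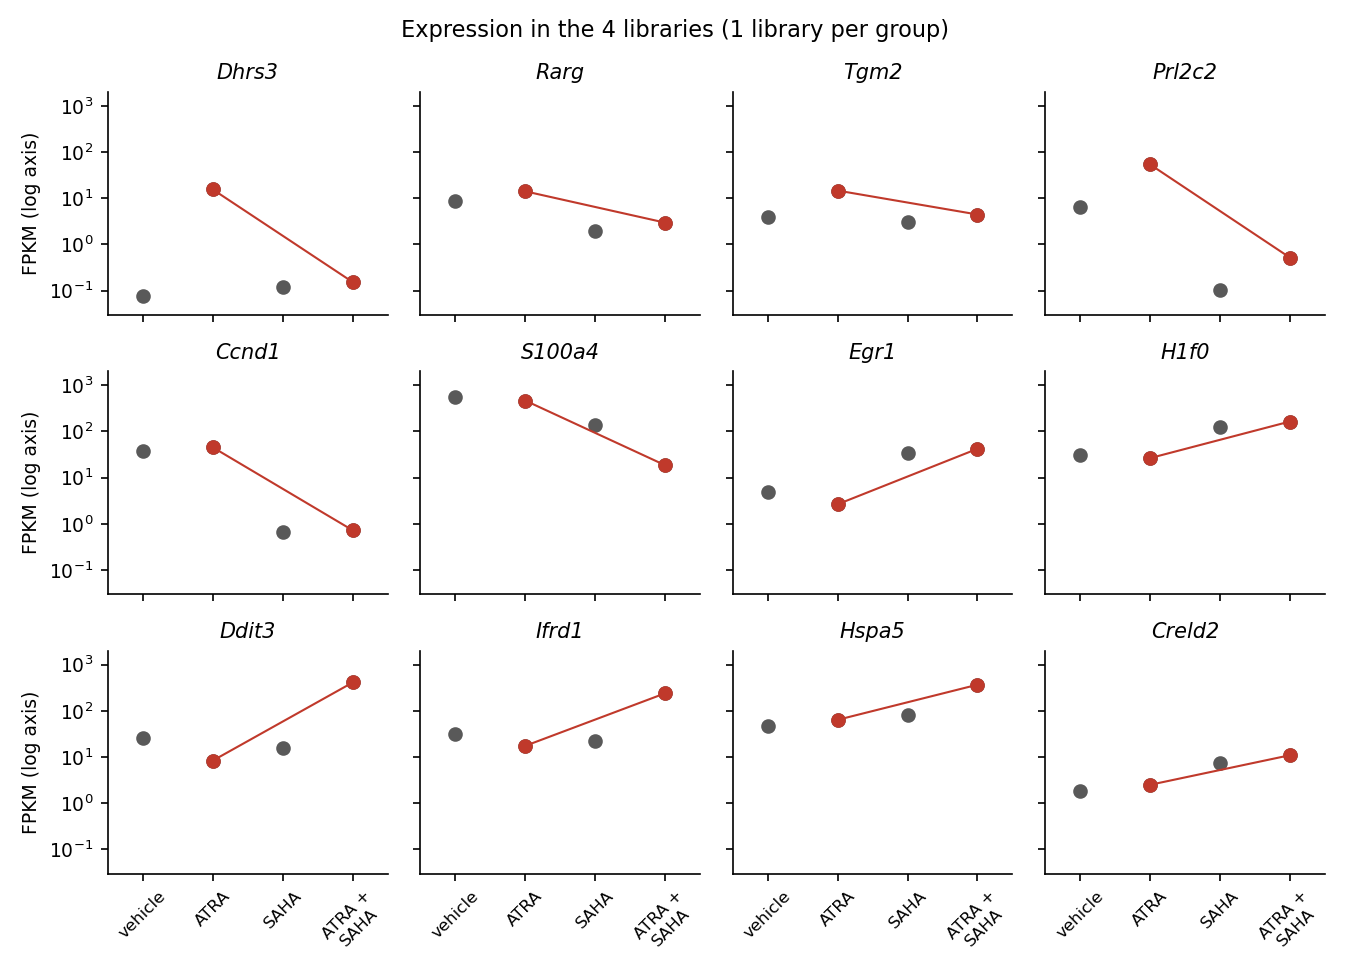
FPKM on a log axis in the 4 libraries for 12 genes, 1 point for each library, with a line from ATRA to the combination of ATRA and SAHA. Dhrs3, Tgm2 and Prl2c2 peak with ATRA alone, Ccnd1 is below 1 FPKM in both libraries with SAHA, Egr1 and H1f0 are high in both, and Ddit3, Ifrd1 and Hspa5 are highest with the combination.

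Of the 11 zinc-dependent HDAC genes themselves 7 were counted, and 1 was lower and none was higher. Hdac7, a class IIa enzyme, gave 3.31 FPKM under vehicle, 3.45 under ATRA, 0.394 under SAHA and 0.349 under the combination, a log2 ratio of -1.72. Its locus overlaps Slc48a1 in the table. Hdac3, the catalytic subunit of the corepressor complexes of nuclear receptors, went from 5.21 to 11.0 FPKM, and Hdac6, the cytoplasmic tubulin deacetylase, from 1.64 to 4.11. These last ratios, 0.94 and 0.96, lay just under the mark. Hdac1 and Hdac2, the enzymes of the nuclear Sin3 and NuRD complexes, had ratios of 0.60 and -0.31.

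Of 30 counted genes known to be induced by HDAC inhibitors 10 were higher with SAHA added (33.3%, beside 10.5% of all counted rows). None was lower, and the median log2 ratio was 0.52. Without ATRA 10 of the 30 were higher and 5 lower, with a median of 0.06. That median was 0.44 with totals made equal after leaving out the 10 highest rows. The largest ratio of the list was that of Ifrd1 (3.71), described with the ER stress genes. H1f0, which encodes the linker histone of resting and differentiated cells and is a classical HDAC inhibitor response gene, gave 30.2 FPKM under vehicle, 26.4 under ATRA, 126 under SAHA and 164 under the combination. Rhob, a small GTPase, gave 17.2, 15.9, 114 and 90.5 FPKM, and Klf2, a zinc-finger factor, gave 2.54, 2.30, 19.9 and 17.0 FPKM. In these 3 genes both libraries with SAHA lay at least 4-fold above both without it. Cdkn1a, the p21 inhibitor of cyclin-dependent kinases and the best-known gene of this list, did not follow: it gave 3.35, 3.15, 3.95 and 3.58 FPKM, a log2 ratio of 0.14. Mt1, a metallothionein, gave 86.3, 138, 353 and 76.4 FPKM, so it was highest with SAHA alone and lowest with the combination.

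Genes known to be repressed by HDAC inhibitors were lower in 5 of 17 counted cases and higher in none, with a median log2 ratio of -0.28. Ccnd1, which encodes cyclin D1, the partner of CDK4 and CDK6 at the start of the cell cycle, had the lowest ratio of these. It gave 37.0 FPKM under vehicle, 45.3 under ATRA, 0.674 under SAHA and 0.723 under the combination, a log2 ratio of -4.75. Bcl2l1, an inhibitor of apoptosis, gave 21.4, 24.7, 2.53 and 3.06 FPKM, and Cflar, which blocks caspase-8 at death receptors, gave 11.5, 8.65, 0.883 and 0.920. In all 3 genes the libraries with SAHA were low and close to each other, and those without it were high. Brca1 (log2 ratio 0.68) and Brca2 (0.39) lay on the other side within the mark.

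Immediate early genes, which respond to growth factors and stress within minutes to hours, were higher in 12 of 33 counted cases and lower in 3, with a median log2 ratio of 0.43. Egr1, a zinc-finger transcription factor, gave 4.92 FPKM under vehicle, 2.64 under ATRA, 34.1 under SAHA and 42.1 under the combination, a log2 ratio of 3.57. Cyr61, a matricellular protein, gave 7.40, 7.06, 18.9 and 37.3 FPKM. Fosl1, a Fos-family factor, ran the other way at 16.0, 8.74, 2.04 and 1.84 FPKM. Myc gave 44.7, 26.5, 6.97 and 13.1 FPKM, a log2 ratio of -0.97 just short of the mark.

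Feedback genes of the MAP kinase pathway, many of which are transcribed in response to the same signal as the immediate early genes, did not share this side. Of 19 counted, none was higher and 5 were lower, with a median log2 ratio of -0.59. Spry2, an inhibitor of receptor tyrosine kinase signalling, gave 5.96, 6.21, 0.553 and 0.448 FPKM. The ERK phosphatases Dusp4 and Dusp7 had log2 ratios of -1.76 and -1.62, and Spred2, an inhibitor of Raf activation, had -1.55. Dusp5, a nuclear ERK phosphatase, had 0.39.

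A set of endoplasmic reticulum (ER) stress genes set the combination apart from every other library. In the unfolded protein response, ER sensors detect misfolded protein, raise chaperones through ATF6 and XBP1, and slow translation through PERK, which favours ATF4 and its target Ddit3. Ddit3 encodes CHOP, a transcription factor linked to cell death under prolonged ER stress. It gave 25.4 FPKM under vehicle, 8.34 under ATRA, 15.6 under SAHA and 411 under the combination, a log2 ratio of 5.46 and a 49.3-fold difference in FPKM between the combination and ATRA. The combination was high alone, and the other 3 libraries lay within 8.34 to 25.4 FPKM. The Ddit3 locus in the table, chr10:127290793-127311786, overlaps Mars, a methionyl-tRNA synthetase, which went the other way, from 8.72 FPKM with ATRA to 2.91 with both.

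Hspa5 encodes BiP, the main ER chaperone and the protein that holds the stress sensors inactive. It gave 47.1 FPKM under vehicle, 63.6 under ATRA, 81.0 under SAHA and 367 under the combination, a log2 ratio of 2.51. Atf3, a stress-induced transcription factor, gave 3.19, 0.905, 3.36 and 8.49 FPKM, a ratio of 2.32. Ifrd1, a transcriptional coregulator whose messenger is stabilised under ER stress, gave 31.5, 17.4, 22.7 and 239 FPKM, a ratio of 3.71. In each of these 3 genes the combination library was the highest, as it was in Ddit3.

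The rest of the ER stress lists were mixed. Of 30 counted ER chaperones and folding enzymes 4 were higher and 4 were lower, with a median log2 ratio of -0.05. These shares, 13.3% each, stood near the 10.5% higher and 11.9% lower of all counted rows. Creld2, a secreted ER stress-responsive protein, gave 1.84, 2.49, 7.47 and 10.9 FPKM. On the lower side stood Cnpy2 (log2 ratio -2.03), Fkbp11 (-1.41), a prolyl isomerase, Ero1l (-1.41), the oxidase that drives disulphide formation, and Txndc5 (-1.28), a disulphide isomerase. Of 17 counted sensors and regulators 3 were higher and 4 were lower. Xbp1, the factor spliced by IRE1 under stress, gave 9.40, 10.4, 1.79 and 2.56 FPKM, a ratio of -1.68. High Ddit3 and Hspa5 thus stood beside low Xbp1 and a list of folding enzymes that, by its counts, resembled all counted rows. Of 21 counted genes of ER-associated degradation 3 were higher, Edem3 (1.52), Os9 (1.46) and Sel1l (1.23).

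Promoter sequences are shown for the ER chaperone genes that hold the ER stress response element, because their ratios differed widely. RefSeq start sites on GRCm38.p6, the assembly of the mm10 build, gave windows from 250 bases before to 50 after the start. Both strands were searched for the ER stress response element, which is CCAAT and CCACG with any 9 bases between them. The CCAAT part binds NF-Y and the CCACG part binds ATF6. The whole element was found in 0.137% of 27025 genes with a window, in 9 of the 6320 counted genes with one (0.142%) and in 7 of 24 ER chaperone genes (29.2%). The Hspa5 window before the start site, chr2:34771840-34772089 on the plus strand, holds 1 match at -65 to -47, in capitals.
Hspa5: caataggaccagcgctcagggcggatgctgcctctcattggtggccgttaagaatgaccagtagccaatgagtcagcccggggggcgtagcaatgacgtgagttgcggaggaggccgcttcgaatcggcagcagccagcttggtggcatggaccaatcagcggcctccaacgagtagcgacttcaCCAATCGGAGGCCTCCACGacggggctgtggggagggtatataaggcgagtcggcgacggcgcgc
The matches of the other 6 chaperone genes, of which Hsp90b1 has 2, with 5 flanking bases on each side and the element in capitals, read as follows in the direction of the element.
Creld2 (chr15:88819515-88819543, minus strand): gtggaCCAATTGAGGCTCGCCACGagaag
Calr (chr8:84847070-84847098, plus strand): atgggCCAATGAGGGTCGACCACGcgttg
Pdia6 (chr12:17266486-17266514, plus strand): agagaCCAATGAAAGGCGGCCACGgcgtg
Hsp90b1 (chr10:86705528-86705556, plus strand): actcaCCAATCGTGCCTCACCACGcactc
Hsp90b1 (chr10:86705633-86705661, minus strand): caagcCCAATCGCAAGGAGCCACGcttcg
Canx (chr11:50325795-50325823, minus strand): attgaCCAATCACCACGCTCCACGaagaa
Dnajc3 (chr14:118937822-118937850, plus strand): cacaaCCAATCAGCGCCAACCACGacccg

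Genes with the same element therefore ran from no difference to a large one. Creld2 had a log2 ratio of 1.77, and calreticulin (Calr), at 37.4 FPKM with ATRA and 74.5 with both, had 0.98. Pdia6, a disulphide isomerase, had 0.97. Hsp90b1, the ER form of HSP90, gave 50.01 FPKM with ATRA and 51.8 with both, and calnexin (Canx) gave 40.02 and 39.1. Dnajc3, a co-chaperone, had a ratio of -0.54. The 2 counted genes with the element outside the chaperone list were Syvn1, a ubiquitin ligase of ER-associated degradation (0.46), and Zfp57, an imprinting factor (-0.76). Of the 7 chaperone genes with a match, 2 passed the 2-fold mark, both on the higher side. A match is a run of letters and not a measured binding site.

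The Ddit3 window before the start, chr10:127290543-127290792 on the plus strand, is shown because this gene had the largest ratio of all named genes present in both libraries. It holds no exact match to this element or to the amino acid response element described next. Inexact sites and sites outside the window were not searched for. The 1 CCAAT match in the window, on the minus strand at -77 to -73, is in capitals.
Ddit3: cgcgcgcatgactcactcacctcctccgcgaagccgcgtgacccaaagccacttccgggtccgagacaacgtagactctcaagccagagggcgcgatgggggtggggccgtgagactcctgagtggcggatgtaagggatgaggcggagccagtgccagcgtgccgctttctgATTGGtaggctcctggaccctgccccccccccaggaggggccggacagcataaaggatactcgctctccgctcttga

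Targets of ATF4, which supply amino acids, glutathione precursors and one-carbon units, lay on the opposite side from Ddit3 in the main ratio. Of 32 counted, 15 were lower and 1, Ddit3 itself, was higher, with a median log2 ratio of -0.90. Without ATRA more of them were lower, 27 of the 32, with a median of -1.67. The ratio was higher by 1 or more with ATRA than without in 10 members, Ddit3 included, and lower by as much in none. With totals made equal after leaving out the 10 highest rows, 24 were lower without ATRA. The ratio with ATRA was then higher by 1 or more in 6 and lower in 1. Mthfd1l, of mitochondrial folate metabolism, gave 8.83, 10.5, 0.779 and 0.864 FPKM in vehicle, ATRA, SAHA and combination, and Shmt2, of the same pathway, gave 37.2, 39.4, 6.46 and 9.93. Slc7a11, the cystine importer, gave 12.8, 17.8, 3.68 and 3.80 FPKM. In these 3 genes both libraries with SAHA were low. Slc1a4, a neutral amino acid transporter, was at 7.01 FPKM with ATRA and 11.1 with both.

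The amino acid response element is represented here by TGATG followed after any 1 base by AA, searched on both strands. It was found in 4.51% of all windows, in 2.53% of those of counted genes and in 8 of 27 windows of the ATF4 list (29.6%). The 3 lowest genes with a match and the highest are shown with 5 flanking bases and the match in capitals, each in the direction of the match.
Slc7a11 (chr3:50443648-50443665, plus strand): catgaTGATGCAAattct
Slc7a11 (chr3:50443667-50443684, minus strand): gtggcTGATGCAAacctg
Vldlr (chr19:27216815-27216832, minus strand): agcgcTGATGCAActatt
Nupr1 (chr7:126625568-126625585, plus strand): ctgtcTGATGCAAtctgg
Slc1a4 (chr11:20332705-20332722, plus strand): ggagaTGATGCAAcgcag
All of these sites read TGATGCAA, and the genes ran from a log2 ratio of -1.97 (Slc7a11) through -1.81 (Vldlr) and -1.57 (Nupr1) to 0.60 (Slc1a4). Nupr1, a small stress-induced chromatin protein, gave 58.5 FPKM under vehicle, 86.5 under ATRA, 2.14 under SAHA and 28.5 under the combination. It was thus low with SAHA alone and intermediate with the combination.

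Cytosolic aminoacyl-tRNA synthetases, some of which are also ATF4 targets, were lower in 4 of 23 cases, Mars (log2 ratio -1.32), Lars (-1.28), Vars (-1.05) and Gars (-1.04). Kars, at 20.8 FPKM with ATRA and 46.6 with both, was higher (1.13).

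Few genes of cell division passed the mark. Of 59 counted genes of G2 phase and mitosis, 2 were lower and none was higher, with a median log2 ratio of -0.26. The spindle checkpoint gene Mad2l1 (log2 ratio -1.09) and the centromeric histone Cenpa (-1.02) were the 2 past the mark. Mki67, which encodes the proliferation antigen Ki-67, gave 27.2 FPKM under vehicle, 23.4 under ATRA, 3.39 under SAHA and 13.7 under the combination, a ratio of -0.73. Without ATRA the same list had 41 lower genes and a median of -1.11, beside a background of 16.0% lower in that comparison. The count fell to 27 with ratios centred on their median and to 23 with totals made equal after leaving out the 10 highest rows, which lowered the background from 1381 to 934 rows. The cell cycle homology region, TTTGAA, was found in 37 of 49 windows of this list (75.5%), against 20.2% of all windows and 13.6% of those of counted genes.

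Of 51 counted genes of G1/S transition and DNA replication 6 were lower and 6 higher. These shares, 11.8% each, stood near the 11.9% lower and 10.5% higher of all counted rows. Beside Ccnd1, its kinase partners Cdk6 and Cdk4 were lower: Cdk6 gave 5.59, 5.53, 0.746 and 0.517 FPKM, and Cdk4 gave 34.9, 40.1, 11.3 and 14.7. The nucleotide synthesis genes Tk1 (log2 ratio -2.33) and Rrm2 (-1.82) were lower too. Gins4, of the replicative helicase, was higher (1.64), as was the primase subunit Prim2 (1.38). Among 8 counted inhibitors and pocket proteins only Rb1, the retinoblastoma gene, passed the mark, at 1.18, 1.23, 6.2 and 5.34 FPKM.

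Replication-dependent histone genes, which are transcribed in S phase, showed almost no difference with SAHA added to ATRA. Of 65 counted, 1 was higher and none was lower, with a median log2 ratio of 0.01. The exception, Hist1h2ap, was listed at 0 with vehicle and with ATRA, at 12.6 FPKM with SAHA and at 93.1 with both, and its locus overlaps Hist1h2ao. Without ATRA, 59 of the same 65 genes were lower and the median was -1.86. Hist1h2br gave 332 FPKM under vehicle, 327 under ATRA, 66.6 under SAHA and 240 under the combination. The SAHA library was the low one, and it is also the library in which Gm20594 took the largest share.

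Mesenchymal and stem cell markers were mostly lower. Of 15 counted mesenchymal genes 8 were lower and none was higher, with a median log2 ratio of -1.1. S100a4, a calcium-binding protein of motile and metastatic cells, gave 557 FPKM under vehicle, 467 under ATRA, 138 under SAHA and 18.6 under the combination, a ratio of -4.58. The combination was the lowest of the 4 libraries, 7-fold or more below SAHA alone. The membrane metalloprotease Mmp14 gave 15.2, 11.5, 0.178 and 0.353 FPKM, the homeobox gene Prrx1 gave 8.97, 9.02, 0.177 and 0.161, and Serpinh1, a collagen chaperone, gave 80.3, 85.7, 4.25 and 10.6. Cdh11, a mesenchymal cadherin, was at 4.25 FPKM with ATRA and 5.94 with both. Of 7 counted epithelial markers 2 were lower and 1 was higher, with a median log2 ratio of -0.23. Of 9 counted cholangiocyte and progenitor markers 2 were lower and none was higher, with a median of -0.39.

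Of 17 counted stem cell and tumour-initiating markers 10 were lower and 1 was higher, with a median log2 ratio of -1.47. Cd34, a sialomucin of progenitor cells, gave 50.8 FPKM under vehicle, 49.4 under ATRA, 2.29 under SAHA and 4.12 under the combination. Ly6a, the Sca-1 antigen, gave 28.2, 9.36, 0.819 and 0.352 FPKM, and Sox2, a pluripotency factor, gave 3.20, 7.44, 0.575 and 0.548. Abcb1b, a drug efflux pump, gave 5.24, 9.24, 0.571 and 0.744 FPKM. In these 4 genes both libraries with SAHA lay below both libraries without it. Tlr4, a receptor studied in these tumour-initiating cells, had a ratio of -2.19, Cd44 had -0.98, and Notch1 was higher at 1.06. Notch1 gave 0.371, 0.488, 1.77 and 2.09 FPKM and passed the filter only through the libraries with SAHA. The filter could thus keep it only as a gene high with SAHA.

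Signalling by TGF-beta and BMP gave a similar picture, with 13 of 27 counted genes lower and a median log2 ratio of -0.99. The Id genes, BMP targets that block differentiation factors, were among the lowest. Id2 gave 3.44 FPKM under vehicle, 21.1 under ATRA, 5.95 under SAHA and 3.92 under the combination. Id1 gave 4.58, 13.4, 2.65 and 3.13 FPKM, and Id3 gave 14.1, 26.3, 2.43 and 4.89. All 3 were highest with ATRA alone. Matrix proteases and their inhibitors had 5 lower and 3 higher of 16 counted, with a median log2 ratio of -0.55. Plau, the urokinase activator of plasminogen (-1.65), its receptor Plaur (-1.83) and the metalloprotease inhibitor Timp2 (-2.54) were lower. Plat, tissue plasminogen activator, was higher, at 0.891 FPKM with ATRA and 10.4 with both. Of 24 counted genes of the Hippo pathway 8 were lower (33.3%) and 3 higher (12.5%), beside 11.9% and 10.5% of all counted rows. Yap1, the coactivator of the pathway, was at 3.41 FPKM with ATRA and 0.694 with both. Cyr61 (log2 ratio 2.25) and F3 (1.25) were among the higher.

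**Figure D3:**
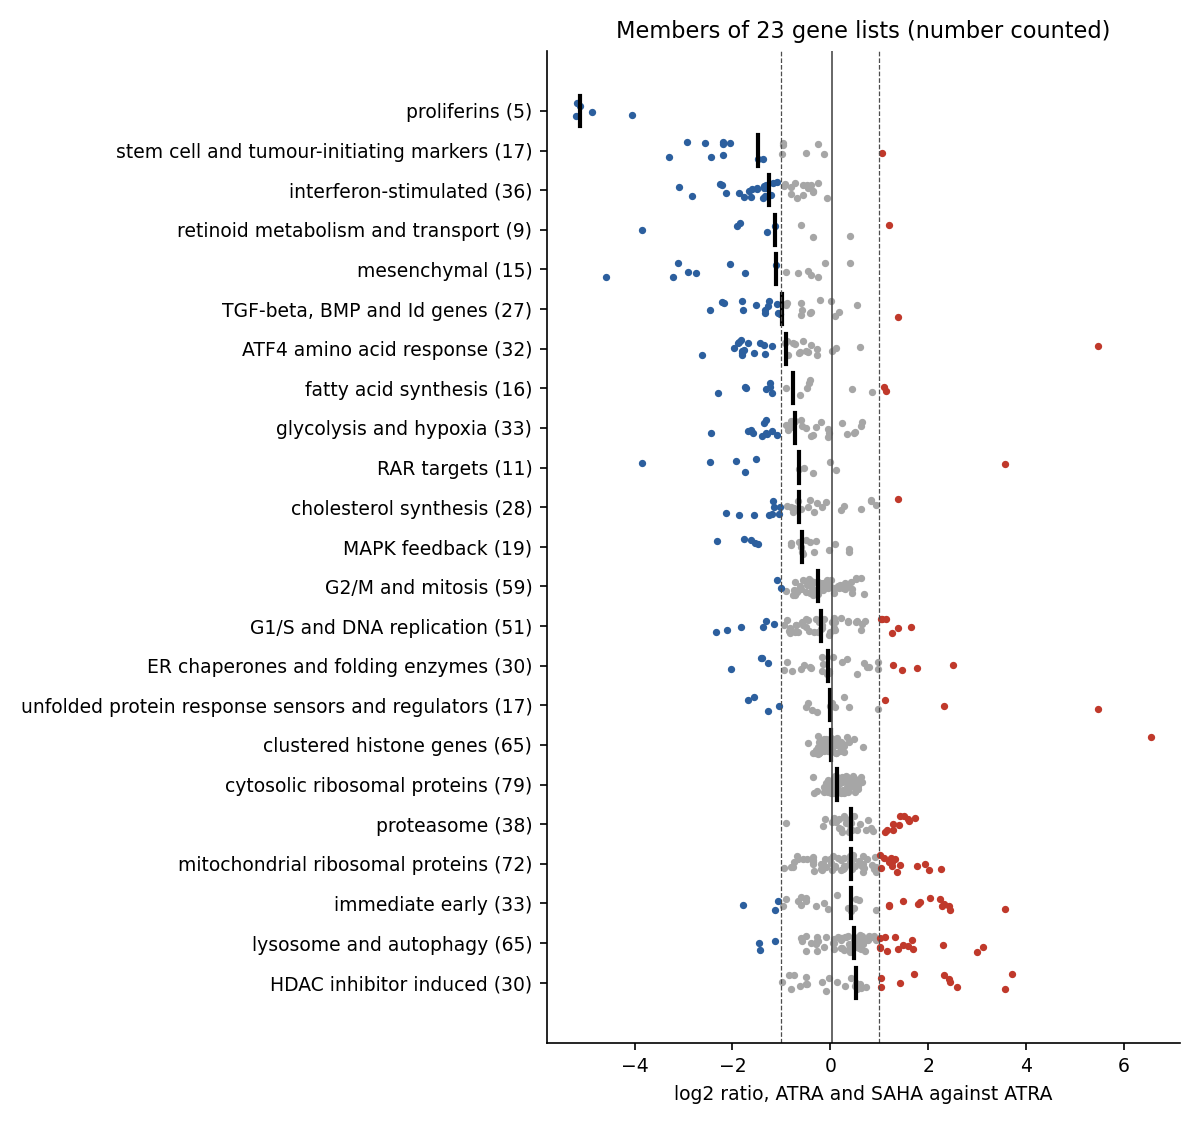
Log2 ratios of ATRA and SAHA against ATRA for the counted members of 23 gene lists, 1 point for each gene, with the number counted in parentheses, the list median as a black bar, the 2-fold marks dashed and the median of all counted rows as a thin line. Points past the mark are coloured. Proliferins, stem cell markers and interferon-stimulated genes have the lowest medians, and genes induced by HDAC inhibitors the highest of those drawn.

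Interferon-stimulated genes were lower in 21 of 36 counted cases and higher in none, and all 36 had a ratio below 0, with a median of -1.25. Ifitm1, a membrane protein that blocks virus entry, gave 32.2 FPKM under vehicle, 41.0 under ATRA, 4.85 under SAHA and 3.93 under the combination. Lgals3bp, a secreted glycoprotein, gave 15.3, 6.91, 0.253 and 0.114 FPKM, and Irf9, the DNA-binding subunit of the interferon-activated complex ISGF3, gave 7.65, 4.63, 0.297 and 0.221. Without ATRA, 34 of the 36 were lower. The list median of ATRA against vehicle, which shares the ATRA library with the main ratio, was -1.16.

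The core of the interferon-stimulated response element, taken as TTTC followed after any 2 bases by TTTC, was found in 14 of 30 windows of this list (46.7%), against 3.99% of all windows and 3.62% of those of counted genes. The sites before the start of the 2 genes with the lowest ratios among those with such a site are shown, in the direction of the match and with 5 flanking bases.
Oas3 (chr5:120777720-120777739, plus strand): ttcacTTTCGTTTTCtcctc
Ifit1 (chr19:34640780-34640799, plus strand): ttcagTTTCACTTTCcagtc
Ifit1 (chr19:34640799-34640818, plus strand): ctcagTTTCAGTTTCtcact
Oas3, which makes the activator of RNase L, went from 3.49 FPKM with ATRA to 0.325 with both, and Ifit1, which binds foreign RNA caps, from 2.35 to 0.0530. Inflammatory genes of the NF-kB pathway were lower in 6 of 16 counted cases and higher in none. Among them Vcam1, an adhesion molecule, gave 12.3, 11.6, 0.445 and 1.17 FPKM, and Ptgs2, the inducible prostaglandin synthase, gave 20.3, 14.4, 3.32 and 2.32.

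Genes of cell death were mixed. Of 15 counted BCL2 family genes 3 were lower and none was higher, among them Bcl2l1, which blocks apoptosis, and Bok (log2 ratio -1.97), which promotes it. Of 20 counted caspases, receptors and inhibitors 3 were lower: Cflar, Casp8 (-2.21), the initiator caspase of death receptors, and Xiap (-1.29), a caspase inhibitor. Diablo, which antagonises XIAP, was higher at 2.36 FPKM with ATRA and 9.19 with both. The p53 gene, Trp53, gave 12.5, 11.8, 1.46 and 2.49 FPKM, and 3 of 27 counted genes of the p53 list were higher and 3 were lower. The shares lower in the BCL2 and caspase lists, 20% and 15%, stood near the 11.9% of all counted rows. So did the p53 list, with 11.1% lower, and its 11.1% higher stood near the 10.5% of all counted rows.

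Redox and xenobiotic genes were lower more often than higher. Of 42 counted genes of the NRF2 and glutathione list 14 were lower and 3 higher, with a median log2 ratio of -0.35. Gsr, glutathione reductase, gave 7.65 FPKM under vehicle, 21.6 under ATRA, 3.53 under SAHA and 3.25 under the combination, and Nqo1, a quinone reductase, gave 6.11, 16.4, 3.39 and 6.4. Aldh3a1, an aldehyde dehydrogenase of the aryl hydrocarbon receptor pathway, gave 2.42, 29.7, 1.55 and 2.62 FPKM, a ratio of -3.08. In all 3 genes the ATRA library was the highest. The glutathione transferases Mgst3 and Gsta4 ran the other way, Mgst3 from 5.48 FPKM with ATRA to 23.9 with both and Gsta4 from 3.68 to 11.3.

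Lipid and sugar metabolism lay on the lower side. Cholesterol synthesis had 9 lower and 1 higher of 28 (median log2 ratio -0.63), fatty acid synthesis 7 lower and 2 higher of 16 (-0.77), and glycolysis with hypoxia genes 11 lower and none higher of 33 (-0.72). Elovl6, a fatty acid elongase, went from 5.04 FPKM with ATRA to 0.232 with both. Ldha, lactate dehydrogenase A, gave 142, 152, 63.9 and 49.7 FPKM, and the lactate exporter Slc16a3 gave 10.5, 13.8, 3.85 and 1.72. Mvk, mevalonate kinase, was the higher gene of cholesterol synthesis (1.39).

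Several lists of protein complexes lay on the higher side. Lysosome and autophagy genes had 14 higher and 3 lower of 65 (median log2 ratio 0.48). Atg12, which is conjugated to ATG5 to extend the autophagosome membrane, gave 3.68 FPKM under vehicle, 3.58 under ATRA, 14.4 under SAHA and 35.4 under the combination, a ratio of 2.99. The proteasome had 10 higher and none lower of 38 (0.41), with the ubiquitin receptor subunit Psmd4 at 17.1 FPKM with ATRA and 59.0 with both. Mitochondrial ribosomal proteins had 14 higher and none lower of 72 (0.43), led by Mrpl49 (2.27), whose locus overlaps Syvn1, and Mrpl28 (2.02). None of 79 counted cytosolic ribosomal proteins passed the mark in either direction (0.14). Psmb6, a catalytic subunit of the proteasome, went from 20.9 to 65.9 FPKM, and Rpl18, of the cytosolic ribosome, from 306 to 472.

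Nuclear functions were divided. Splicing factors had 10 lower (18.9%) and 5 higher (9.43%) of 53, beside 11.9% and 10.5% of all counted rows. The serine- and arginine-rich factor Srsf2 gave 27.1, 18.6, 10.9 and 3.34 FPKM, and Srsf1 gave 13.3, 8.61, 5.81 and 1.54, both lowest with the combination. The small nuclear ribonucleoprotein Snrpd2 was higher, at 85.8 FPKM with ATRA and 234 with both. Chromatin modifiers had 5 lower and none higher of 57 (median log2 ratio -0.29). Their share lower, 8.77%, stood near the 11.9% of all counted rows. The lowest was Hmga2, an architectural factor of stem and tumour cells, at 8.96 FPKM with ATRA and 0.546 with both. Of 5 counted sirtuins, the deacetylases that SAHA does not target, Sirt7 was higher (2.21), at 1.01 FPKM with ATRA and 8.29 with both. Of 54 listed neuronal genes, which are often silent in other cells, 17 were counted, 5 higher (29.4%) and 4 lower (23.5%). Over all counted rows these shares were 10.5% and 11.9%. The adhesion molecule Cadm4 gave 0.0575, 0.0981, 9.44 and 8.05 FPKM. Cadm4 and Uchl1, both among the higher genes, passed the filter only through the libraries with SAHA. The filter could thus keep them only as genes high with SAHA.

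The remaining genes at the ends of the ranking fall under none of these headings. On the lower side stood Cldn6, a claudin of embryonic epithelia, at 57.7 FPKM with ATRA and 2.57 with both, Kcnn4, a calcium-activated potassium channel, at 19.4 and 0.290, and Igfbp4, which binds insulin-like growth factors, at 118 and 9.34. Nrn1 (log2 ratio -3.75), a neurite growth protein, the prostaglandin transporter Slco2a1 (-3.47) and the secreted Angptl2 (-3.45) completed the 15 lowest. On the higher side stood Snupn, which imports small nuclear ribonucleoproteins into the nucleus, at 0.892 FPKM with ATRA and 16.3 with both, and Fam117a at 0.271 and 10.2. Paf1 (2.72), of an elongation complex, Zcchc17 (2.70), Pcx (2.59), the pyruvate carboxylase, and Ttll1 (2.46), a tubulin polyglutamylase subunit, completed the 15 highest.

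The same SAHA ratio can be read without ATRA, as SAHA against vehicle, from libraries that the main comparison does not share. There 679 rows were higher (7.88%) and 1381 were lower (16.0%). This balance depended on the scaling: centring the ratios gave 881 higher and 1157 lower, and equal totals without the 10 highest rows turned it to 1406 higher and 934 lower. Without small RNAs, 7.69% were higher and 15.8% lower, against 10.2% and 11.8% with ATRA. Of these, 469 genes were higher in both comparisons, 72.0% of those higher without ATRA and 54.3% of those higher with it. Lower in both were 799 genes, 59.6% and 79.8% of the respective lists. With equal totals without the 10 highest rows, 623 genes were higher in both (45.4% and 83.5%) and 637 lower in both (70.9% and 64.1%). Across the 8467 genes Pearson's r of the log2 ratios was 0.84 and Spearman's rho was 0.84, which describes these libraries only, since genes are not replicates. Each of the 4 libraries enters 1 of the ratios.

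**Figure D4:**
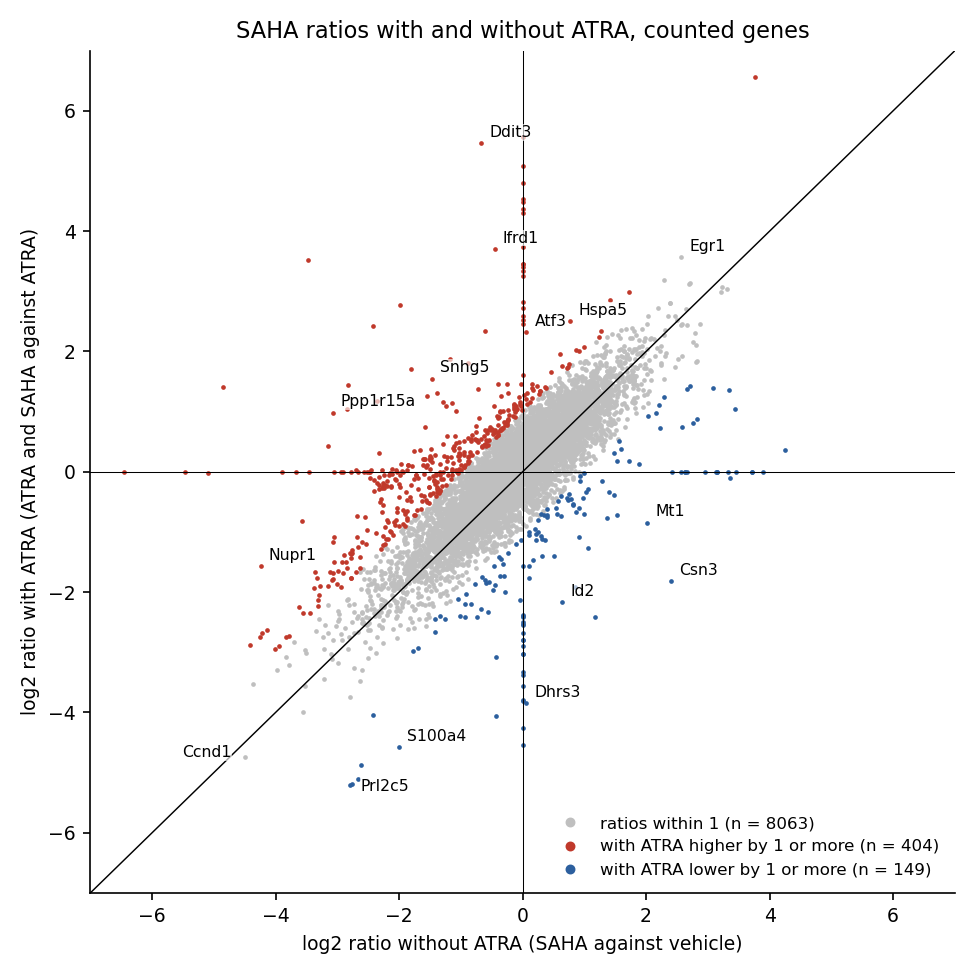
The log2 ratio of SAHA against vehicle on the x axis and of ATRA and SAHA against ATRA on the y axis for the 8616 counted rows, with the line of equal ratios. Coloured points differ by 1 or more between the ratios: 404 are higher with ATRA and 149 lower. Points lined up on an axis are rows with no difference in 1 of the comparisons, many of them listed at 0 in both of its libraries.

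The ratio with ATRA exceeded that without it by 1 or more in 404 rows (4.69%) and fell short of it by as much in 149 (1.73%). This split turned with the scaling: with column totals made equal after leaving out the 10 highest rows, it was 227 and 399. Among genes chosen here after their values were seen, the largest excess was in Ddit3, with a log2 ratio of 5.46 with ATRA and -0.67 without. Ifrd1 followed with 3.71 and -0.45, and then Ppp1r15a, the phosphatase subunit that reverses the translation block of ER stress, with 0.98 and -3.08. Ppp1r15a gave 27.0 FPKM under vehicle, 5.56 under ATRA, 2.32 under SAHA and 11.96 under the combination. These stress genes had lower values with ATRA than with vehicle and higher values with the combination than with SAHA.

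On the opposite side, Dhrs3 had a ratio of -3.84 with ATRA and 0.05 without, and only the ATRA library held more than 0.2 FPKM of it. Id2 had -2.17 and 0.65, and Aldh3a1 had -3.08 and -0.42. Of the lists, 62 of 65 clustered histone genes and 29 of 59 genes of G2 phase and mitosis had a ratio higher by 1 or more with ATRA than without. With the other scaling these counts were 57 and 9. The histone list's median difference, 1.88, was 1.42 with that scaling. Mesenchymal genes, with medians of -1.1 with ATRA and -1.13 without, and stem cell markers, with -1.47 and -1.46, had nearly the same median in both settings, but members differed: 3 of 15 and 4 of 17 had ratios 1 or more apart. With the other scaling the mesenchymal medians were -1.14 and -0.85 and the stem cell medians -1.43 and -1.25.

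**Figure D5:**
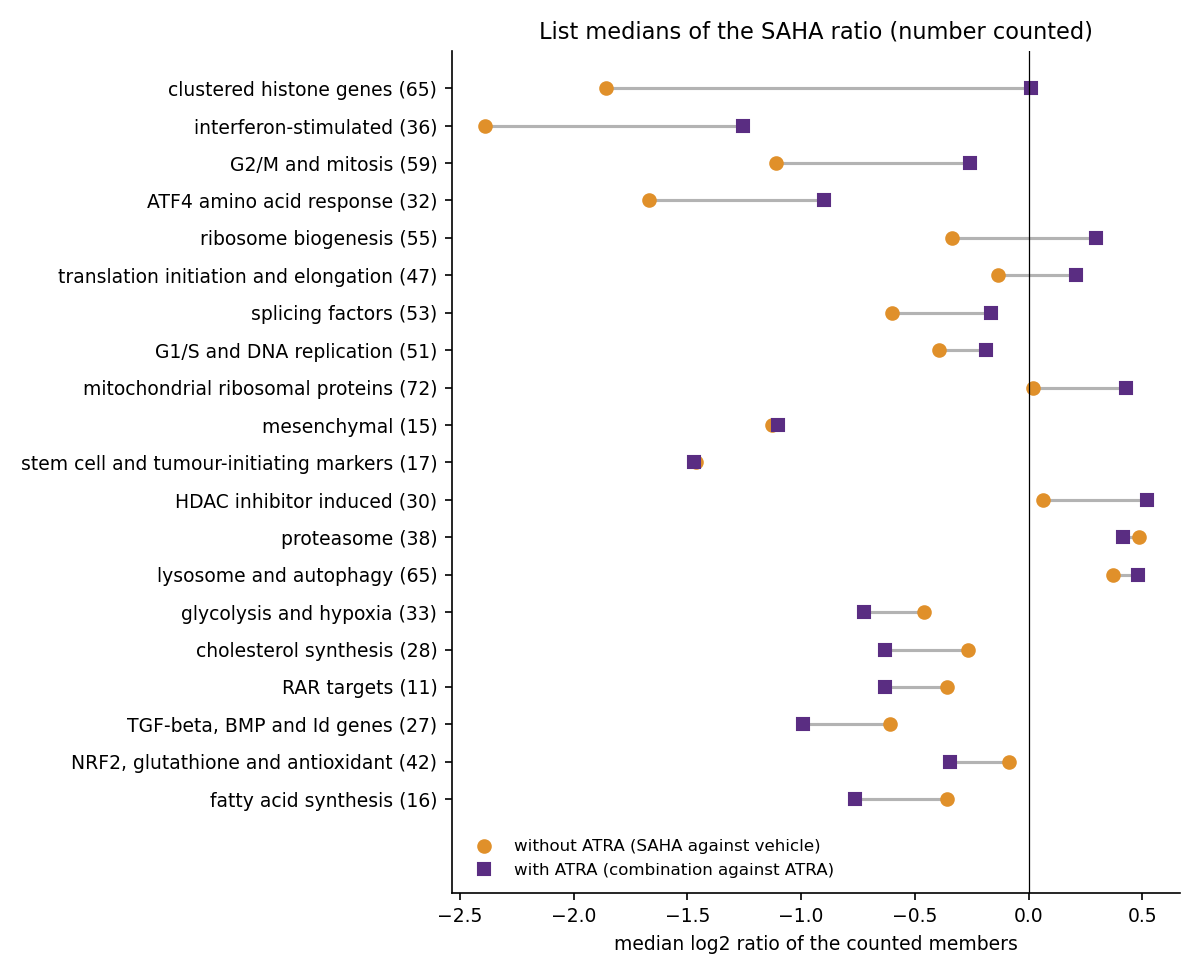
Median log2 ratio of the counted members of 20 lists, without ATRA (circles) and with ATRA (squares), with the number counted in parentheses. Clustered histones move from -1.86 to 0.01 and interferon-stimulated genes from -2.39 to -1.25, while mesenchymal and stem cell markers have nearly the same median in both at this scaling. With totals made equal after leaving out the 10 highest rows the median difference changes sign in 25 of the 53 lists with 5 or more counted members, among them the mitochondrial ribosomal proteins (0.27 to -0.09), the proteasome (0.14 to -0.31), splicing factors (0.28 to -0.13) and G1/S (0.22 to -0.12).

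Small RNAs are not read as expression of mature forms, since the library protocol removed ribosomal RNA and did not select by size. Of 60 counted small nucleolar and Cajal body RNAs 16 were higher and 3 lower, and of 77 microRNA rows 21 were higher and 24 lower with a median of 0. Many of these rows lie inside host genes, and reads of host and small RNA cannot be told apart in the table. Of all counted rows 1622 (18.8%) overlap another row. Without them, 715 rows were higher and 836 lower. Other genes named above whose loci overlap another row are Ccnd1, Ifrd1, Cd34, Sox2, Shmt2, Fosl1, Adh7, Tk1, Rb1, Angptl2, Timp2, Pcx, Hmga2 and Diablo. Part of their values could come from the other row.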

How the data were processed

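Libraries were made from total RNA of 4 cultures after ribosomal RNA had been removed, per the labels' protocols. Reads were trimmed with Trimmomatic 0.32 and quantified with Cuffdiff against mm10, per the submitters' processing notes. The deposited values are FPKM, 1 column for each library, per the file headers. The sources used here do not give the aligner, the annotation, the strand setting, any scaling between columns or the duration of the vehicle culture. The column headed RA was read as ATRA, the only such treatment in the labels. Symbols that a spreadsheet had converted to dates (27 rows) were restored from the description column.

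Ratios were computed as log2((FPKM + 1)/(FPKM + 1)) over rows with a mean of at least 1 FPKM, with Python 3.11.15, numpy 2.4.6 and pandas 2.3.3. There is 1 library for each group, so no test was run and no error can be given: a gene was called at a log2 ratio of 1 in size. The rule was run on simulated data only to check the computation. The noise there was small and chosen in advance, so the outcome says nothing of counting error or of the spread between cultures. Depth was estimated from the step between low FPKM values times transcript length, over transcripts of 1000 to 4000 bases. The depth estimate bears on counting only, and no interval is printed. Gene lists, 59 in all, were described by counts and medians. The members and lists were chosen with earlier results of these data known. Named were the 15 highest and 15 lowest genes with at least 5 FPKM in the higher of both libraries, without predicted genes, pseudogenes and small RNAs, up to 4 members of each list on the side of its median and up to 2 on the other, and a fixed set of retinoid, HDAC and marker genes. A few genes that this rule names are not reported here, and counts and medians of their lists include them. Genes named for a promoter motif are all members with a match or its lowest and highest, and those named for a difference between settings were chosen after their values were seen. The 8 alternative settings were another pseudocount, 3 other filters, 2 scalings, no small RNAs, and, chosen after seeing the data, no overlapping rows. Promoter windows and their coordinates come from RefSeq on GRCm38.p6, and 6320 of the 8616 counted rows matched a window by symbol.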

Additional observations from a re-analysis of the deposited data

Results flagged for a closer look

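Without small RNAs, 7 genes had a SAHA ratio past the 2-fold mark in opposite directions with and without ATRA. The 6 described here leave out 5430416N02Rik, an uncharacterised gene. With 1 library for each group this difference was not tested. Snhg5 and Snhg12, host genes of small nucleolar RNAs, were higher with SAHA added to ATRA and lower with SAHA alone, so their log2 ratios differed by 3.02 and 2.70. Snhg5 gave 7.28 FPKM under vehicle, 4.97 under ATRA, 1.99 under SAHA and 16.5 under the combination. The locus of Snhg12 overlaps 4 small nucleolar RNAs in the table. Nfil3, a transcription factor of the circadian clock, gave 10.9, 3.81, 3.86 and 9.70 FPKM, a difference of 2.45, and Sepw1, a small selenoprotein, gave 23.4, 15, 10.5 and 31.1, a difference of 2.09. Csn3, kappa-casein, and Tinagl1, a matrix protein, were lower with SAHA added to ATRA and higher with SAHA alone. Csn3 gave 0.768, 8.46, 8.39 and 1.68 FPKM, a difference of -4.23, so each compound alone gave a higher value than vehicle or both. The locus of Csn3 overlaps 1700066N21Rik. Tinagl1 gave 24.2, 46.5, 51.7 and 18.6 FPKM, a difference of -2.34.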

How the results depend on the processing

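The counts of 901 higher and 1029 lower rows kept within 1.5 times under both scalings, without small RNAs, without overlapping rows, with no filter and with the filter on both compared libraries. With a pseudocount of 0.1 in place of 1, 1410 rows were higher and 1523 lower, and 1012 in place of 553 differed by 1 or more between the settings with and without ATRA. With a mean of at least 5 FPKM the counts were 435 higher, 419 lower and 277 differing, from fewer rows. No named gene past the mark and no list median past the mark changed sign under any alternative. Of the 5 list medians past the mark, 4 dropped inside it with no filter: interferon-stimulated (-0.91), mesenchymal (-0.17), stem cell (-0.13) and retinoid metabolism (-0.03). The last was also inside it with the filter on both compared libraries (-0.99) and without overlapping rows (-0.86). With totals made equal after leaving out the 10 highest rows, 3 named genes dropped inside the mark and 3 others passed it. No paired analysis was possible because each group has 1 library, and for the same reason leaving out a replicate was not possible. The spread between cultures is therefore unknown, and no difference printed here can be set against it. Genes below 1 FPKM in both libraries are compressed by the pseudocount, so their ratios understate the fold in FPKM.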
